A study of Mus musculus with 10 samples.

Results

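The genes described here are 10 targets and regulators of the unfolded protein response of the endoplasmic reticulum (ER): *Hspa5*, *Hsp90b1*, *Dnajb9*, *Sdf2l1*, *Pdia4*, *Xbp1*, *Herpud1*, *Derl3*, *Creld2* and *Manf*. They were taken by symbol, and every probe set (a group of array probes for 1 transcript or gene) that the platform's annotation paired with 1 of these symbols alone was kept, which gave 18 probe sets for 10 genes of 45037 probe sets and 18193 genes in all. The cells were male 129SV mouse embryonic stem cells (ESCs) called *Max*-null, in which both endogenous copies of *Max* are disrupted and a tetracycline-off transgene supplies MAX, the partner with which MYC binds DNA, until doxycycline (Dox) shuts it off. All 10 arrays, untreated ones included, came from such cells, so untreated means that the transgene was on. In conventional medium with leukaemia inhibitory factor and serum (LIF+serum) there were 6 arrays on Dox, 1 each at 1, 2, 3, 4, 6 and 8 d, and 2 untreated arrays. The first untreated array is labelled as the partner of Dox 1 to 4 d (first set) and the second as that of Dox 6 and 8 d (second set). The growth protocol of these 8 arrays names other media beside LIF+serum, and they were taken as conventional cultures because their titles do not mention 2i. In 2i+LIF, a medium with inhibitors of MEK and GSK3β, there was 1 array after 6 d of Dox and 1 untreated array. Nothing in the labels ties an array to a culture of its own. The spread behind every p-value is therefore that of these hybridisations and could be technical. For the slope per day of Dox that spread also holds any departure of a gene's course from a straight line. For the Dox stages (1 and 2 d, 3 and 4 d, 6 and 8 d) the times of a stage stand in for replicates. That spread thus holds any change between those times. Each untreated array is fitted exactly there, so variation between untreated arrays is not in it.

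The ER folds proteins bound for the membrane and for secretion, and its load is read by 3 sensors. IRE1 splices *Xbp1* mRNA so that it encodes an active transcription factor, ATF6 is cut in the Golgi to release another, and PERK slows translation and favours ATF4. XBP1 and ATF6 raise the genes of chaperones, disulfide isomerases and of ER-associated degradation (ERAD), which carries misfolded proteins to the proteasome. The arrays read the total mRNA of each gene, not the splicing of *Xbp1* or the cutting of ATF6, and in bulk RNA fewer cells of a type and less RNA per cell cannot be told apart.

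Values are log2 probe set signals after robust multi-array analysis (RMA), and they are compared between arrays for 1 probe set at a time. The median over all probe sets was 5.14 and 5.16 on the 2i+LIF arrays and 5.26 to 5.33 on the LIF+serum arrays. *Pou5f1*, the defining ESC transcription factor, named here outside the rule for genes, had log2 values of 11.92 to 12.79 on the LIF+serum arrays. The 3′ excess of beta-actin over its 5′ probe set, a sign of shorter RNA, was 0.41 to 0.56 (log2) in the first set and 0.88 to 1.46 in the second, and its part in differences between the sets was not tested. The *Max* probe set moved little, with log2 values of 5.07 to 6.20 and a slope of 0.02 per day of Dox (adjusted p = 0.785, limma). Its position relative to the deletion and to the transgene is not stated, so it is no check of the labels.

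Promoter windows were read to show which binding letters the genes carry upstream of their start. The ER stress response element (ERSE), bound by ATF6 and XBP1 together with NF-Y, was searched as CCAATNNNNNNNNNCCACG, and ERSE-II as ATTGGNCCACG. The UPR element was searched as TGACGTGG and the E-box, the letters that MYC and MAX bind, as CACGTG. Both strands were searched over 250 bases before and 50 bases after each start in RefSeq (GRCm38.p6), where 9 of the 10 genes had a window and *Manf* was not listed. ERSE was found in 39 of 32851 windows (0.119%), and in those of *Hspa5*, *Hsp90b1*, *Derl3* and *Creld2*. ERSE-II was found in 12 windows (0.0365%), 1 of them that of *Herpud1*. The UPR element was found in 222 windows (0.676%) and in 0 of the 9, and the E-box in 2349 windows (7.15%), among them those of *Derl3* and *Dnajb9*. A match describes letters and is not a measured binding site. The windows of *Hspa5* and of the 3 genes with the highest folds on Dox are printed 5′ to 3′ on the gene's strand. Capitals mark the fixed letters of ERSE or ERSE-II and the 6 letters of the E-box; in *Derl3* ERSE lies on the other strand, and no searched motif overlaps another.
*Hspa5*, chr2:34771840-34772139, plus strand: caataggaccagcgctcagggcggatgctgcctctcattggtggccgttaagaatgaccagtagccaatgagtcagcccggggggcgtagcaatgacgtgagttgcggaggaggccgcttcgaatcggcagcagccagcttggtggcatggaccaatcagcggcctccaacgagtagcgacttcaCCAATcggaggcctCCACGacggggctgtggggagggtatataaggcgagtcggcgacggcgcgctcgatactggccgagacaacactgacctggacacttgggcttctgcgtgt
*Dnajb9*, chr12:44210019-44210318, minus strand: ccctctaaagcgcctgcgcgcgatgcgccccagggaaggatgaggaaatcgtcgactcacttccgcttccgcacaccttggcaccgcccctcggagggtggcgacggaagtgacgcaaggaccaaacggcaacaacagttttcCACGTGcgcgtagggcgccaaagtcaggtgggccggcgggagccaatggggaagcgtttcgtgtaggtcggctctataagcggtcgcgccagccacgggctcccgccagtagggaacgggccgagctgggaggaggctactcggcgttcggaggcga
*Herpud1*, chr8:94386179-94386478, plus strand: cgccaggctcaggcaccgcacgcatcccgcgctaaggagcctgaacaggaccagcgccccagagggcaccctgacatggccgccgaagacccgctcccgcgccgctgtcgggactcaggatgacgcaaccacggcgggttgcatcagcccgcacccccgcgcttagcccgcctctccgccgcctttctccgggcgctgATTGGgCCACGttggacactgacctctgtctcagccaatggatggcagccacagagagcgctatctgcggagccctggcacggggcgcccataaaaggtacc
*Derl3*, chr10:75893148-75893447, plus strand: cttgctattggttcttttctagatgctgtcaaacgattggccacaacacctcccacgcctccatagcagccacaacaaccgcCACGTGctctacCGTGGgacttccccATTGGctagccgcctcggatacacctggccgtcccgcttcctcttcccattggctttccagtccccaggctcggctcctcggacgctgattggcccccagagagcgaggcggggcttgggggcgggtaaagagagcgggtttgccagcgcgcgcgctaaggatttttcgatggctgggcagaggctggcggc
The *Hspa5* window held 1 ERSE close before the start, *Herpud1* 1 ERSE-II, *Derl3* 1 ERSE and 1 E-box, and *Dnajb9* an E-box with neither form of ERSE as searched. The ERSE sites of the other 2 genes are given on the motif's own strand, with the fixed letters in capitals, to show how the letters between them vary.
*Hsp90b1*, first site, chr10:86705638-86705656: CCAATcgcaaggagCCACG
*Hsp90b1*, second site, chr10:86705533-86705551: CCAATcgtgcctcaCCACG
*Creld2*, chr15:88819520-88819538: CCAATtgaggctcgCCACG

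Over the Dox course in LIF+serum the 10 genes did not move as a block. *Dnajb9*, a partner of BiP, rose up to 4.16-fold, and *Herpud1*, of ER-associated degradation, rose 3.16- and 3.19-fold at 3 and 4 d. *Derl3*, of the same pathway, was over 2-fold higher on 3 arrays but missed the threshold. *Hspa5*, which encodes BiP itself, stayed within 0.24 (log2) of its untreated arrays on the brightest of its probe sets. A slope per day was fitted over the 8 LIF+serum arrays with limma, with the array set as a term. In that fit 1 of 10 genes rose (*Dnajb9*) and 0 fell, against 5.75% and 5.33% of all genes. At an unadjusted p under 0.05, 3 of the 10 were higher (*Dnajb9*, *Derl3* and *Hsp90b1*) and 0 lower, against 13.2% and 14.8% of all genes. Dox 3 and 4 d against untreated gave 2 of 10 genes that rose (*Dnajb9* and *Herpud1*) and 0 that fell, against 6.23% and 3.46% of all genes. At 6 and 8 d 1 rose (*Dnajb9*) and 0 fell, against 5.86% and 5.88%, and at 1 and 2 d 0 rose and 0 fell, against 0.247% and 0.0%, with 0 higher and 1 lower (*Sdf2l1*) at an unadjusted p under 0.05, against 8.83% and 7.81%. At that p 4 were higher and 1 lower at 3 and 4 d, against 13.5% and 14.1%, and 2 higher and 0 lower at 6 and 8 d, against 13.3% and 14.7%. The median slope of the 10 genes was 0.07 per day, against -0.01 for all genes. Their median difference was 0.20 at 3 and 4 d, against -0.09, and 0.38 at 6 and 8 d, against -0.06. Slopes lay above 0 for 8 of the 10 genes, and differences for 6 at 3 and 4 d and 9 at 6 and 8 d. The share of all genes above 0 was not counted.

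**Figure D1:**
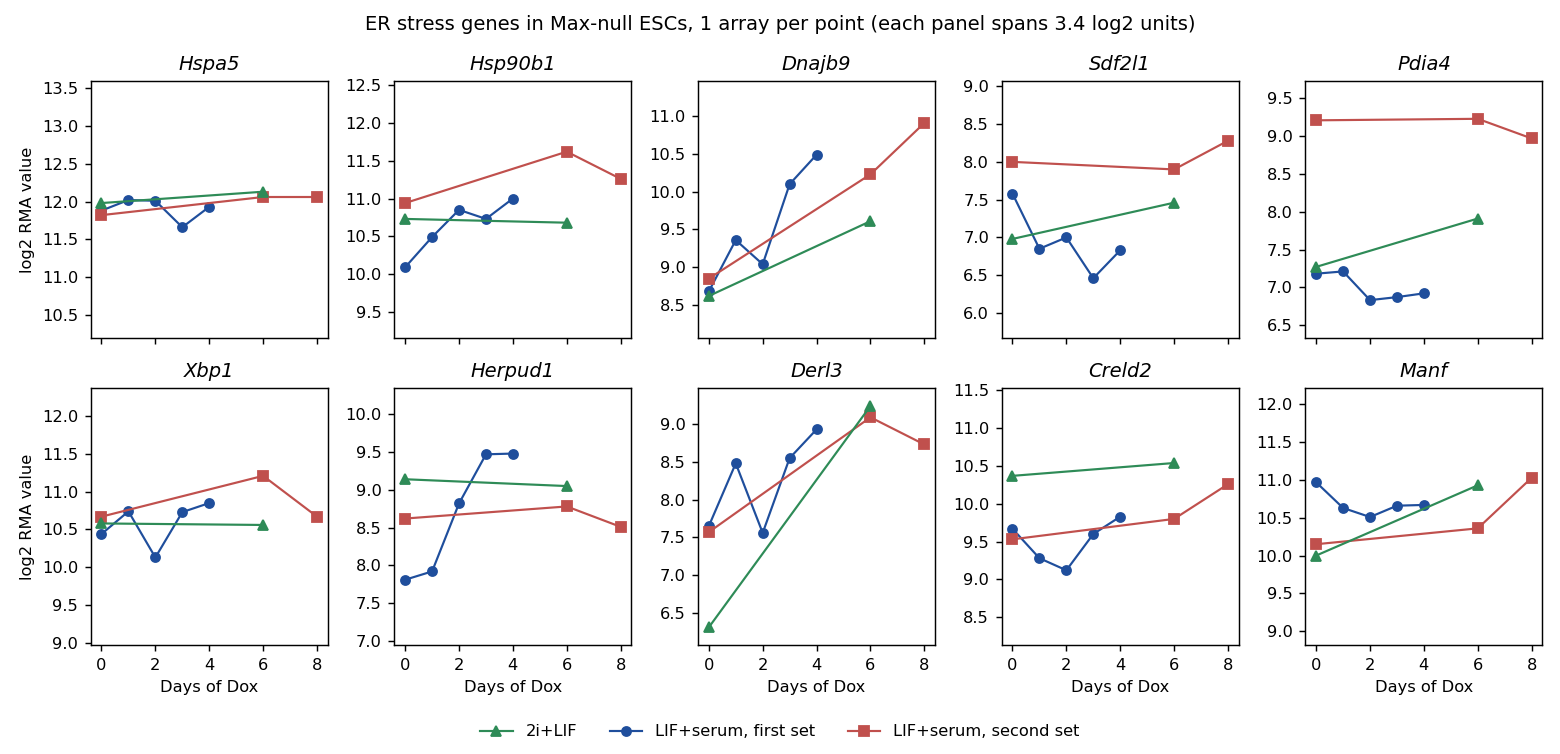
Log2 RMA value (vertical axis) of each of the 10 genes at its brightest probe set against days of Dox (horizontal axis), 1 array per point, with lines joining the arrays of 1 set. *Dnajb9* climbs in both LIF+serum sets, *Herpud1* climbs to 9.48 in the first set only, *Derl3* starts lowest in untreated 2i+LIF (6.31), and *Hspa5* stays between 11.66 and 12.13.

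Gene positions are those of GRCm38.p6. The ER chaperones come first. *Hspa5* (chr2:34772090-34776529) encodes BiP, the ER HSP70 that holds unfolded chains and keeps the sensors inactive. In the first set its brightest probe set read 11.88 untreated and 12.02, 12.01, 11.66 and 11.93 after 1, 2, 3 and 4 d of Dox, and in the second set 11.82 untreated and 12.06 and 12.06 after 6 and 8 d. Dox arrays lay on both sides of the untreated ones, with a slope of 0.02 ± 0.03 per day (SE, adjusted p = 0.744, limma). Its other probe sets had slopes of -0.01 and 0.00. At 3 and 4 d the difference was -0.09 on the brightest, and -0.28 and -0.23 on the others (adjusted p = 0.849, 0.458 and 0.547, limma). A miss of the threshold does not show that the gene was unchanged, but the single-array folds of the brightest probe set were between 0.859 and 1.18.

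*Hsp90b1* (chr10:86690841-86705444) encodes GRP94, the HSP90 of the ER. Its brightest probe set read 10.09 untreated and 10.49, 10.85, 10.73 and 11.00 at 1, 2, 3 and 4 d in the first set, and 10.94 untreated and 11.62 and 11.26 at 6 and 8 d in the second. All 6 Dox arrays were above the untreated array of their own set, by 1.25- to 1.87-fold, but the untreated arrays differed from each other by 0.85 (log2). The slope was 0.09 ± 0.04 (SE, adjusted p = 0.173, limma). Its other probe set read close to it in the first set (2.03-fold at 4 d), but in the second set its folds were 1.36 at 6 d and 0.993 at 8 d, and there the second untreated array lay 0.39 below the first (9.45 against 9.84). Without the 8 d array the slope of the brightest probe set was 0.15 (adjusted p = 0.0383, limma).

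*Dnajb9* (chr12:44205897-44210068) encodes ERdj4, a J-domain partner of BiP that also holds back IRE1. It read 8.68 untreated and 9.36, 9.04, 10.10 and 10.49 at 1, 2, 3 and 4 d of Dox in the first set. In the second set it read 8.85 untreated and 10.23 and 10.91 at 6 and 8 d. Every Dox array lay above both untreated arrays. The folds over the untreated array of the same set were 1.60, 1.28, 2.67, 3.49, 2.60 and 4.16 from 1 to 8 d. The slope was 0.29 ± 0.04 per day (SE, adjusted p = 0.00598, limma), and the stage differences were 1.61 ± 0.31 at 3 and 4 d (adjusted p = 0.0207, limma) and 1.72 ± 0.31 at 6 and 8 d (adjusted p = 0.0126, limma). The first set alone gave a slope of 0.44 (adjusted p = 0.0257, limma). Leaving out the second untreated array gave a slope of 0.42 with an adjusted p of 0.245, a setting in which 0 of all probe sets rose. The call at 3 and 4 d was lost without the 3 d array (adjusted p = 0.0509) or the 4 d array (adjusted p = 0.132).

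*Sdf2l1* (chr16:17130138-17132383), an ER protein that works beside the J-domain partners of BiP, went the other way in the first set. It read 7.58 untreated and 6.85, 7.0, 6.46 and 6.83 at 1, 2, 3 and 4 d, all below the untreated array, and 8.00 untreated and 7.90 and 8.28 at 6 and 8 d. At 3 d its fold was 0.461, the only value of the 10 genes at least 2-fold lower on any Dox array. The difference at 3 and 4 d was -0.93 ± 0.25 (SE, adjusted p = 0.0593, limma). It passed the threshold, at -0.93 and -1.04, when dim probe sets were left out (adjusted p = 0.0417) or when the arrays were quantile normalized again (adjusted p = 0.0405).

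*Pdia4* (chr6:47796141-47813512) encodes ERp72, a disulfide isomerase. On its brighter probe set it read 7.18 untreated and 7.21, 6.83, 6.87 and 6.92 at 1, 2, 3 and 4 d, and 9.21 untreated and 9.23 and 8.97 at 6 and 8 d. The sets differed more than any Dox array did from its own untreated array: the second untreated array was 4.10-fold above the first. It was the only 1 of the 10 genes at least 2-fold higher there, against 6.43% of all genes. The other *Pdia4* probe set was dim, at 3.84 to 4.58, and was the only one of the 18 that never reached 6. The slope on the brighter probe set was -0.04 ± 0.03 (SE, adjusted p = 0.479, limma).

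*Xbp1* (chr11:5520641-5525993) encodes the transcription factor that IRE1 activates by splicing. Its brightest probe set read 10.44 untreated and 10.74, 10.13, 10.73 and 10.85 at 1, 2, 3 and 4 d, and 10.67 untreated and 11.21 and 10.67 at 6 and 8 d. Dox and untreated arrays overlapped, and the slope was 0.03 ± 0.04 (SE, adjusted p = 0.675, limma). Of the other 3 probe sets, 2 had slopes of 0.01 and 0.00 and the dimmest had a slope of -0.08 (adjusted p = 0.271, limma).

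The ERAD genes follow. *Herpud1* (chr8:94386429-94395371) encodes a membrane protein that gathers the HRD1 ubiquitin ligase complex. Its brighter probe set read 7.81 untreated and 7.92, 8.82, 9.47 and 9.48 at 1, 2, 3 and 4 d, folds of 1.08, 2.02, 3.16 and 3.19. In the second set it read 8.62 untreated and 8.78 and 8.51 at 6 and 8 d, folds of 1.12 and 0.928. *Herpud1* was high at 3 and 4 d and close to its own untreated array at 6 and 8 d, with the second untreated array 0.81 above the first. The slope over both sets was 0.11 ± 0.07 (SE, adjusted p = 0.43, limma). In the first set alone it was 0.49 (adjusted p = 0.0174, limma). The difference at 3 and 4 d was 1.67 ± 0.34 (SE, adjusted p = 0.0235, limma) on this probe set and 1.12 (adjusted p = 0.0305, limma) on the other, while the difference at 6 and 8 d was 0.03 ± 0.34 (adjusted p = 0.975, limma). On the other probe set the untreated arrays were nearly level, at 7.15 and 7.19, and the 6 and 8 d arrays read 7.28 and 7.26. Without the set term the call at 3 and 4 d was lost (1.26, adjusted p = 0.102), as it was without the 3 d array (adjusted p = 0.0841) or the 4 d array (adjusted p = 0.130).

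*Derl3* (chr10:75893398-75895941) encodes a derlin, a channel-like protein of the ERAD machinery. It read 7.65 untreated and 8.48, 7.56, 8.55 and 8.93 at 1, 2, 3 and 4 d, and 7.57 untreated and 9.09 and 8.73 at 6 and 8 d. All Dox arrays but that at 2 d lay above both untreated ones, with folds of 1.78, 0.939, 1.86, 2.42, 2.86 and 2.23 from 1 to 8 d. The slope was 0.19 ± 0.05 (SE, adjusted p = 0.0601, limma) and the difference at 6 and 8 d was 1.34 ± 0.37 (adjusted p = 0.0548, limma), so neither passed. Without the 2 d array the slope had an adjusted p of 0.0355, and without the 4 d array of 0.145.

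*Creld2* (chr15:88819646-88826681) and *Manf* (chr9:106888753-106891938) encode ER proteins of the lumen, the second of which binds BiP and can be secreted. *Creld2* read 9.67 untreated and 9.28, 9.12, 9.60 and 9.83 at 1, 2, 3 and 4 d, and 9.53 untreated and 9.80 and 10.26 at 6 and 8 d. *Manf* read 10.97 untreated and 10.63, 10.51, 10.66 and 10.67 at 1, 2, 3 and 4 d, and 10.15 untreated and 10.36 and 11.03 at 6 and 8 d. Both had their highest LIF+serum value at 8 d, 1.67-fold (*Creld2*) and 1.83-fold (*Manf*) above the second untreated array, and neither passed the test at 6 and 8 d (adjusted p = 0.260 and 0.277, limma). For *Manf* the first untreated array was nearly as high as the 8 d array.

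**Figure D2:**
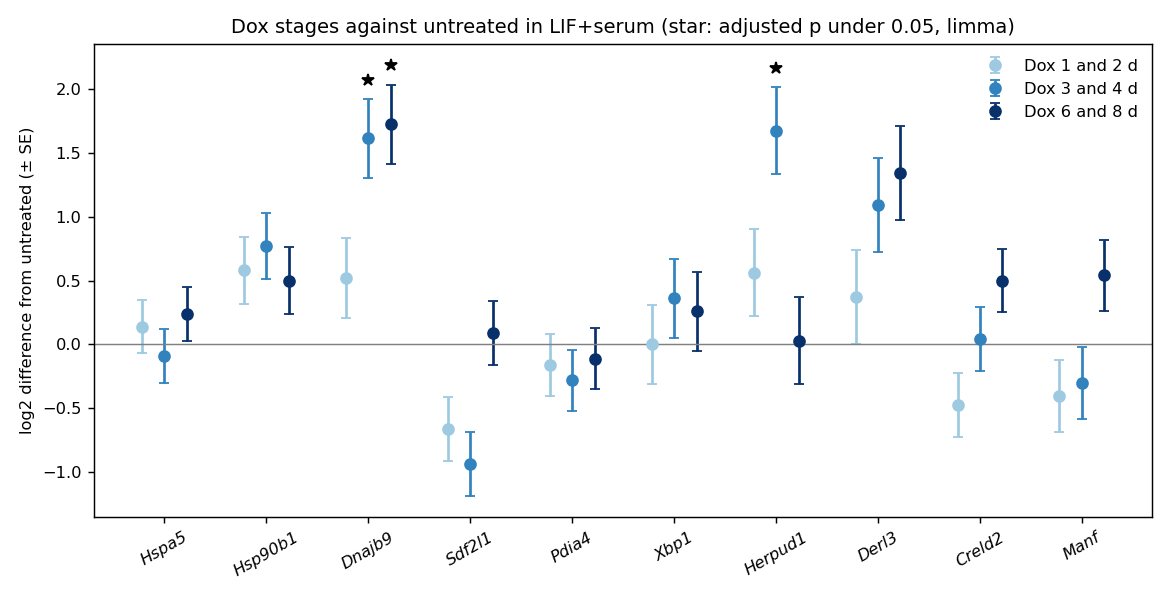
Log2 difference from untreated (vertical axis, ± SE from limma) of each gene at Dox 1 and 2 d, 3 and 4 d, and 6 and 8 d in LIF+serum, with stars where the adjusted p is under 0.05. *Dnajb9* carries 2 stars (1.61 and 1.72) and *Herpud1* 1 (1.67), and *Sdf2l1* lies lowest at 3 and 4 d (-0.93).

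Counted by single arrays at 2-fold, 0 of 10 genes were higher at 1 d (3.0% of all genes), 1 at 2 d (*Herpud1*; 4.28%), 2 at 3 d (*Herpud1* and *Dnajb9*; 6.13%), 3 at 4 d (with *Derl3*; 7.72%), 2 at 6 d (*Derl3* and *Dnajb9*; 5.94%) and the same 2 at 8 d (6.38%). Lower by at least 2-fold were 0 at 1 d (0.566%), 0 at 2 d (1.36%), 1 at 3 d (*Sdf2l1*; 3.06%), 0 at 4 d (3.92%), 0 at 6 d (5.35%) and 0 at 8 d (5.65%). The times of a set share 1 untreated array, so these counts are not independent of each other. Among the genes themselves, the profiles over the 8 LIF+serum arrays had a median Pearson correlation of 0.32 over 45 pairs, from -0.39 to 0.88. Of these pairs 9 were below 0 and 12 over 0.5. Pairs among all genes were not computed, so these values are not set against a background. The profiles nearest to that of *Hspa5* among 9865 genes with a mean log2 value of 6 or more were those of *C2cd2l*, *Zfp398*, *Tmem151b*, *Zfp90* and *Clip1* (Pearson r of 0.927 to 0.852 over 8 arrays). Nearest to the mean of the 10 genes were *Inpp4a*, *Uap1*, *Pias1*, *G3bp2* and *Sgpl1* (0.989 to 0.984 over 8 arrays). These points share the array sets and RNA quality.

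Several markers of other cell types were high on the 8 d array, but their lists went both ways. Of 9 fibroblast feeder markers 6 were higher and 3 lower at 8 d than on the second untreated array, and their summed linear level was 1070 at 8 d, 325 at 6 d and 324 untreated. *Acta2*, of smooth muscle and fibroblasts, rose in the trend (adjusted p = 0.0471, limma) and read 9.44 (log2) at 8 d and 5.37 on the second untreated array. Without *Acta2* the sum was 379 at 8 d, 258 at 6 d and 283 untreated. Of 10 trophectoderm markers 7 were higher and 3 lower at 8 d. Their sum was 2130 at 8 d, 987 at 6 d and 640 untreated. Without *Krt18*, named outside the rule, it was 1300 at 8 d, 768 at 6 d and 508 untreated. *Krt7* rose in the trend (0.38, adjusted p = 0.0133, limma). Of 16 primitive endoderm markers 11 were higher and 5 lower. Their sum was 3900 at 8 d, 2890 at 6 d and 2640 untreated. Without *Sparc*, named outside the rule, it was 2070 at 8 d, 1510 at 6 d and 1830 untreated, so 6 d lay below untreated. *Pdgfra* rose in the trend (0.32, adjusted p = 0.00263, limma). Of 9 mesendoderm and neural markers 5 were higher and 4 lower, and 0 passed in the trend (*Evx1* -0.10, *Pax6* -0.09). Their sum was 1170 at 8 d, 1180 at 6 d and 1110 untreated. Without *Tubb3*, named outside the rule, it was 501 at 8 d, 614 at 6 d and 538 untreated. On the first untreated array the full sums of these lists were, in order, 387, 800, 2780 and 1200. Of 10 ESC markers *Klf4* (0.24) and *Nanog* (0.11) rose and *Utf1* fell (-0.14). The calls in the trend stand against 5.75% of all genes that rose and 5.33% that fell. The share of all genes higher at 8 d was not counted, and their median log2 difference there was -0.04. The part of cells of other types in the 8 d values of *Dnajb9*, *Creld2* and *Manf* was not tested. The *Dnajb9* slope without the 8 d array was 0.30 (adjusted p = 0.0118, limma).

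The wider pathway was read from lists of other ER genes, 1 probe set per gene. Of 10 sensors and proteases 2 rose and 0 fell: *Ern1*, which encodes IRE1 (0.15 per day, adjusted p = 0.0146, limma), and *Creb3l2*, a membrane-bound factor related to ATF6 (0.18, adjusted p = 0.00588). Of 30 other chaperones and folding enzymes 3 rose and 1 fell. *Ero1b*, an oxidase for disulfide formation, had a slope of 0.24 (adjusted p = 0.00351), *Dnajc1*, a J-domain partner of BiP, 0.21 (adjusted p = 0.0038), and *Tmx1*, a thioredoxin-like membrane protein, 0.16 (adjusted p = 0.00992). The 1 that fell was *Hyou1*, a large ER HSP70 (-0.10, adjusted p = 0.0417). Of 24 ERAD genes 4 rose and 1 fell. *Herpud2*, a relative of *Herpud1*, had 0.25 (adjusted p = 0.00424), the lectin *Os9* 0.16 and the ubiquitin-binding *Faf2* 0.13, and *Edem1*, which trims mannose from misfolded glycoproteins, fell (-0.15, adjusted p = 0.0198). Of 21 translocation and signal peptidase genes 1 rose (*Sec63*, 0.13, adjusted p = 0.0495), and of 20 ER export genes 2 rose (*Copb2* 0.12, *Copb1* 0.10, coats of Golgi-to-ER vesicles). All of these counts stand against 5.75% of all genes that rose and 5.33% that fell. For the chaperones the median slope was 0.00, for ERAD genes 0.04, and for all genes -0.01.

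**Figure D3:**
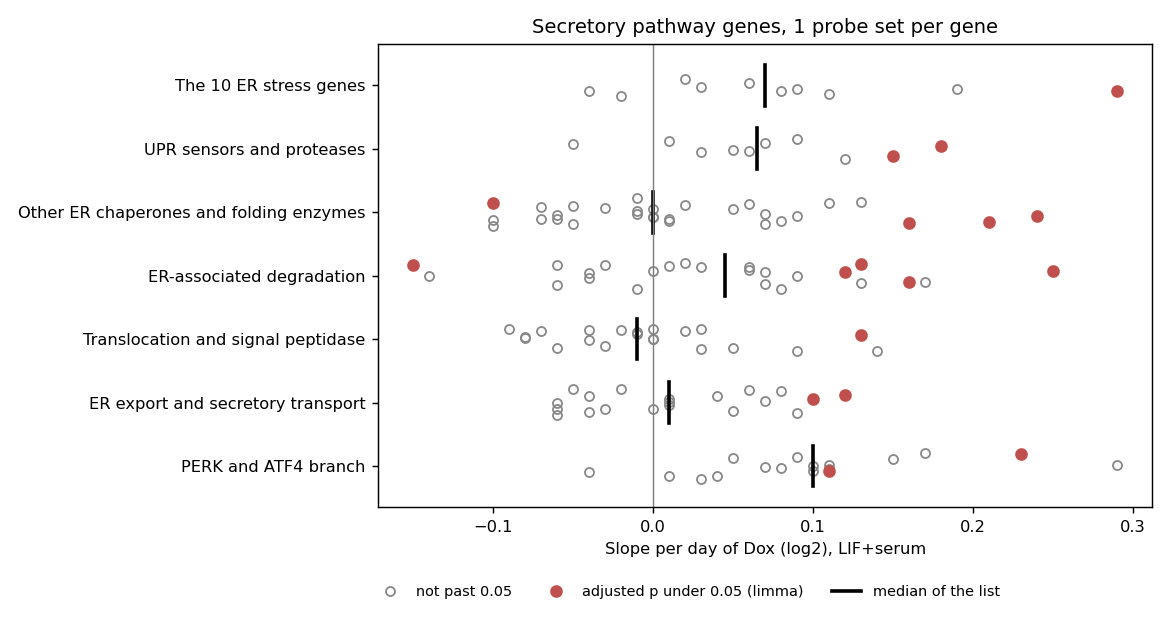
Slope per day of Dox (horizontal axis, log2) of each gene of the ER lists in LIF+serum, 1 circle per gene, filled where the adjusted p is under 0.05, with a bar at each list's median. The medians lie between -0.01 and 0.10, and *Dnajb9* (0.29) is the only filled one among the 10 ER stress genes.

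The PERK and ATF4 list held more genes that rose at 3 and 4 d. Of 17 measured, 2 rose in the trend and 0 fell: *Atf3* (0.23, adjusted p = 0.00932, limma) and *Ppp1r15a*, which reverses PERK's block of translation (0.11, adjusted p = 0.0469). At 3 and 4 d 5 of 17 rose and 0 fell, against 6.23% and 3.46% of all genes, with a median difference of 0.99 against -0.09. The first set alone gives this difference, and its untreated array was the lower one for most of the list: 7 of 17 exceeded it by 2-fold or more on the second untreated array, as did 6.43% of all genes. The 5 were *Atf4*, *Ddit3*, *Chac1*, *Nupr1* and *Vldlr*, named after their values were seen. *Nupr1* read 9.26 on the second untreated array and 4.59 on the first, *Chac1* 8.35 and 6.42, *Vldlr* 6.57 and 4.59, and *Atf4* 11.97 and 10.56. *Ddit3*, which encodes CHOP, read 6.37 untreated and 6.69, 7.28, 8.01 and 8.30 at 1, 2, 3 and 4 d (difference 1.79 at 3 and 4 d, adjusted p = 0.0218, limma), and 6.93 untreated and 7.97 and 7.20 at 6 and 8 d. Its course in the first set, like that of *Herpud1*, was highest at 3 and 4 d. The median difference of the list was 0.09 at 6 and 8 d, and whether the stages differ from each other was not tested.

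In 2i+LIF the same 6 d of Dox were set beside the LIF+serum 6 d array, each as a fold over its own untreated array, with 1 array per condition and no test. *Derl3* stood out: it read 9.24 on Dox and 6.31 untreated in 2i+LIF, and 9.09 on Dox and 7.57 untreated in LIF+serum. The folds were 7.60 in 2i+LIF and 2.86 in LIF+serum, a log2 difference of 1.41, which is above the 95th percentile of all genes (1.12). The Dox levels of *Derl3* were close in both media, and the gap lay in the untreated arrays: the 2i+LIF untreated array was 1.34 below the first LIF+serum one and 1.26 below the second. It was the only 1 of the 10 genes at least 2-fold lower than both, against 4.01% of all genes, and 0 were at least 2-fold higher than both, against 3.72%. These counts use the brightest probe sets, where *Herpud1* was 2.52- and 1.44-fold above the first and second LIF+serum untreated arrays. The other *Herpud1* probe set was 3.16- and 3.09-fold above them. On Dox in 2i+LIF 1 of 10 genes was at least 2-fold higher (*Derl3*) and 0 lower, against 1.75% and 2.42% of all genes, and the median of the 10 was 0.33, against 0.02 for all genes.

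*Dnajb9*, the gene with the steepest course in LIF+serum, read 9.61 on Dox and 8.62 untreated in 2i+LIF, a fold of 1.99, against 2.60 in LIF+serum at 6 d. *Manf* read 10.93 on Dox in 2i+LIF, 1.90-fold above the untreated array, against 1.16-fold in LIF+serum. *Pdia4* read 7.91 on Dox and 7.27 untreated in 2i+LIF, 1.55-fold, against 1.01-fold in LIF+serum. *Hspa5* read 12.13 on Dox and 11.98 untreated in 2i+LIF, and *Creld2* 10.54 and 10.37, so both moved as little as in LIF+serum (1.11- and 1.12-fold, against 1.18- and 1.21-fold). For 4 genes the media differed in direction, and the share of all genes that did so was not counted. *Hsp90b1*, *Xbp1* and *Herpud1* were slightly lower on Dox in 2i+LIF, at 0.970-, 0.990- and 0.938-fold, and higher on Dox in LIF+serum, at 1.60-, 1.45- and 1.12-fold. The dimmest *Xbp1* probe set was lower on Dox in both media (0.950- and 0.726-fold), while its other probe sets went as the brightest did. *Sdf2l1* was higher in 2i+LIF (1.40-fold) and lower in LIF+serum (0.931-fold), but over the first untreated array its LIF+serum fold was 1.25, and the opposite direction was lost. Differences of this size were not tested, and the 2i+LIF arrays had a lower median, with no source saying whether they were normalized with the others. Renormalizing all 10 arrays by quantiles gave 1.16 for *Derl3* in place of 1.41.

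**Figure D4:**
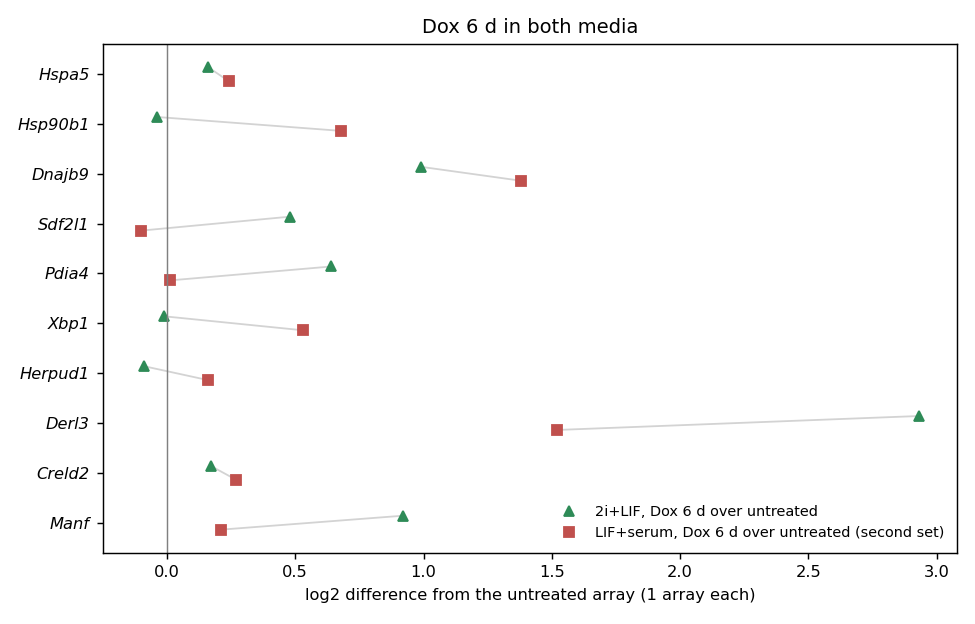
Log2 difference of Dox 6 d from the untreated array (horizontal axis) for each gene, in 2i+LIF (triangles) and LIF+serum (squares), 1 array per condition. *Derl3* is farthest right in both media (2.93 and 1.52), and *Hsp90b1*, *Sdf2l1*, *Xbp1* and *Herpud1* have points on both sides of 0.

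The genes with ERSE letters in any RefSeq window formed a set chosen by sequence and not by expression. Of 37 genes with ERSE, 20 had a probe set with 1 symbol, of which 2 rose in the trend (*Ero1b* and *Tdrd9*) and 1 fell (*Acacb*), with a median slope of 0.015, beside 5.75% of all genes that rose and 5.33% that fell. *Tdrd9* acts in the germline and *Acacb* in fatty acid metabolism. The 9 measured genes with ERSE-II had 0 that rose and 0 that fell, with a median slope of 0.07. Of the 4 ERSE genes among the 10 described here 0 passed in the trend, and *Dnajb9*, which passed, had neither letter pattern in its window.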

How the data were processed

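Total RNA of *Max*-null ESCs was hybridised to Affymetrix mouse genome arrays. The authors corrected the background, normalized the arrays by RMA and deposited log2 values per probe set; RMA and affy are listed in the submitters' processing notes with no version, and no source says which arrays went through RMA together. RMA makes the arrays' distributions alike and shrinks differences of dim probe sets.

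Of 45101 probe sets, 64 controls were left out. The platform annotation gave 34945 of the others 1 symbol (18193 genes), 932 several, and did not list 9160. A gene is read at its probe set with the highest mean over the 10 arrays. Slopes per day and stages were fitted to the 8 LIF+serum arrays with limma 3.58.1 (R 4.3.3, lmFit and eBayes), the array set being a covariate, with 5 residual and 4.81 prior degrees of freedom for the slope and 3 and 5.69 for the stages, and Benjamini-Hochberg adjustment over 45037 probe sets at 0.05. Each gene's share of all genes called uses its brightest probe set. Single times have 1 array and were not tested. On simulated data with 45037 probe sets, the slope fit found 91 of 100 changes of 0.25 (log2) per day and 99 of 100 of 0.5, with 11 false calls. The stage fit found 87 of 100 changes of 2 (log2, at 3 and 4 d) and 99 of 100 of 4, with 9 false calls. Stage changes of 2-fold were not simulated. The simulated noise was independent between arrays, with no shift between the sets, so these rates need not hold for the real arrays. Promoter windows are RefSeq's (GRCm38.p6). Python 3.11.15, pandas 2.3.3, numpy 2.4.6 and matplotlib 3.10.9 were used for the rest.

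The 10 genes, the other lists and the tests were chosen with earlier results of these data known. The genes named are the 10, from each other list up to 3 genes with the steepest slope each way among those past the threshold (2 with the largest slope where none passed), the 5 nearest profiles, and *Max*; others are said to be named after their values were seen or outside the rule. Alternatives left out the set term, used log2(day + 1), left out dim probe sets (under 6), renormalized by quantiles, changed the eBayes settings, averaged probe sets, left out each array, or changed the untreated array or fold threshold.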

Additional observations from a re-analysis of the deposited data

Results flagged for a closer look

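For 4 of the 10 genes Dox at 6 d moved the single arrays of the media in opposite directions, with 1 array per condition, so the difference was not tested. The log2 fold in 2i+LIF minus that in LIF+serum was -0.72 for *Hsp90b1*, -0.55 for *Xbp1*, 0.59 for *Sdf2l1* and -0.25 for *Herpud1*. All 4 lie between the 5th and the 95th percentile of all genes (-1.26 and 1.12). In each the log2 change in 1 medium was small. In 2i+LIF it was -0.04 for *Hsp90b1*, -0.01 for *Xbp1* and -0.09 for *Herpud1*, and in LIF+serum -0.10 for *Sdf2l1*. The share of all genes with opposite directions was not counted, so the 4 are not set against a background. The genes depend on the baseline: over the first untreated array *Sdf2l1* was higher in both media (1.40-fold in 2i+LIF and 1.25-fold in LIF+serum), and *Manf* went opposite ways (1.90-fold and 0.656-fold). On that baseline the differences were -1.57 for *Hsp90b1*, 0.17 for *Sdf2l1* and -1.07 for *Herpud1*. No group held the 4 samples needed to look for an array that stands apart.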

How the results depend on the processing

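Precision is limited by 1 array per Dox time. Of 450 gene estimates under the alternatives 410 kept their direction and side of the threshold, 16 passed it anew, 6 lost it and 18 changed sign. No paired analysis was possible because the groups share no more than 1 replicate number; the array set, which ties each Dox array to its untreated one, is a term of the fits. Stage fits without an untreated array could not be made. The cause of the shifts given here was not tested, beyond fewer arrays or probe sets where some were left out.

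None of the estimates that changed sign had passed the threshold. In the trend they were those of *Hspa5* (-0.03 in the first set alone, -0.02 without the second untreated array), *Xbp1* (-0.01 with probe sets averaged), *Sdf2l1* (0.08 without the set term, 0.01 without the first untreated array, with a range of -0.13 to 0.01 when each array was left out), *Pdia4* (0.16 without the set term) and *Manf* (-0.06 in the first set alone). At 1 and 2 d they were *Derl3* (-0.09 without 1 d, range -0.09 to 0.83), *Pdia4* (0.03 without 2 d, range -0.35 to 0.03) and *Manf* (0.01 without the set term). At 3 and 4 d they were *Hspa5* (0.05 without 3 d, range -0.22 to 0.05), *Creld2* (-0.07 without 4 d) and *Manf* (0.11 without the set term). At 6 and 8 d they were *Xbp1* (-0.01, range to 0.53) and *Herpud1* (-0.11) without 6 d, *Sdf2l1* (-0.10, range to 0.28) and *Pdia4* (0.01, range down to -0.24) without 8 d, and *Pdia4* without the set term (0.90). The difference between the media for *Pdia4* was 0.62, and -1.41 over the first untreated array.

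In the trend, 2150 probe sets rose and 1879 fell (10846 at an unadjusted p under 0.05). Leaving out each array in turn gave 0 to 2739 that rose and 0 to 2581 that fell; 0 and 0 came without the second untreated array, 1120 and 820 without 4 d, 1416 and 1121 without 6 d, and 1244 fell without 3 d. In the first set alone 991 fell. Of the 10 genes, 2 rose with log2(day + 1), with dim probe sets left out and in the first set alone (7.11%, 9.73% and 4.31% of all genes), and 0 to 3 when each array was left out: 0 without the second untreated array, 2 without 2 d and 3 without 8 d (0.0%, 4.96% and 6.82%).

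At 1 and 2 d 117 probe sets rose and 0 fell (6812 at an unadjusted p under 0.05); 0 rose without the set term, with dim probe sets left out and without each Dox array in turn, and 411 rose and 12 fell with eBayes trend and robust. At 3 and 4 d 2385 rose and 1209 fell; without the set term these were 438 and 510, and leaving out each Dox array gave 52 to 2520 and 3 to 1227, the lowest without 4 d, with 1121 and 266 without 3 d. Of the 10 genes 1 rose there without the set term (1.06% of all genes). When each array was left out 0 to 3 rose: 0 without 3 d or 4 d (2.94% and 0.148%) and 3 without 1 d or 2 d (6.02% each). With dim probe sets left out or quantiles renormalized 1 fell (*Sdf2l1*; 7.54% and 3.75%). At 6 and 8 d 2344 rose and 2056 fell, with 1249 to 1915 that fell when each Dox array was left out, the lowest without 8 d. Of the 10 genes 1 to 2 rose there when each was left out (2 without 1 d or 2 d, 5.59% of all genes each), and 2, with *Derl3*, rose without the set term, without dim probe sets, after quantiles and with eBayes trend and robust (8.82%, 10.2%, 5.89% and 6.67%).

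At single times, with the untreated array of the other set, members at least 2-fold higher numbered 0 at 2 d, 1 at 3 d, 4 at 6 d and 4 at 8 d (0.934%, 2.33%, 13.0% and 12.7% of all genes), and members at least 2-fold lower 2 at 1, 2, 3 and 4 d each (3.12%, 2.60%, 4.11% and 5.28%). With the probe sets of a gene averaged, 0 were higher at 2 d (2.62%). At 1.5-fold 2 were higher at 1 d, 2 at 2 d, 4 at 3 d, 4 at 8 d and 4 in 2i+LIF (8.85%, 10.1%, 13.1%, 14.1% and 6.66%), and 1 was lower at 1 d and 1 at 4 d (6.85% and 14.6%). Of 80 differences between untreated arrays or media, 11 moved by more than the spread, among them that of *Pdia4* between the LIF+serum untreated arrays (1.84 after quantiles, against 2.03).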

Other observations

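On the untreated array in 2i+LIF 9 of the 17 genes of the PERK and ATF4 list were at least 2-fold higher than on both untreated LIF+serum arrays, beside 3.72% of all genes, and 3 were not above both. *Ddit3* read 7.38 on Dox and 10.49 untreated in 2i+LIF, against 6.37 and 6.93 on the untreated LIF+serum arrays, and its fold on Dox was 0.116. Of the 17 genes 5 were at least 2-fold lower on Dox in 2i+LIF (*Ddit3*, *Cebpb*, *Nupr1*, *Atf5* and *Trib3*, folds of 0.116, 0.220, 0.262, 0.294 and 0.306) and 0 higher, beside 2.42% and 1.75% of all genes. Their LIF+serum folds at 6 d were 2.06, 0.879, 1.52, 2.00 and 0.921. These genes were named after their values were seen, and with 1 array per condition no difference was tested.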
